A study of Homo sapiens with 8 samples.

Results

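The respiratory chain subunits described here are 59 genes of the 63677 in the count files. They comprise the 13 protein-coding genes of the mitochondrial genome and 46 nuclear genes for subunits of complexes I to V. The members were taken from a fixed list of names and matched by gene symbol to the Ensembl identifiers of the counts, and all 59 were found. The nuclear genes divide into 22 of complex I, 4 of complex II, 6 of complex III, 8 of complex IV and 6 of the ATP synthase (complex V).

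The cells were PC9, an established line of human lung adenocarcinoma, and PC9-BrM3, the brain metastatic derivative of that line. The 8 RNA-seq libraries form 4 groups of 2: untransduced PC9 parental cells, untransduced PC9-BrM3 cells, PC9-BrM3 cells with the inducible non-target hairpin Tet-pLKO-shNTC (shNTC), and PC9-BrM3 cells with the inducible HSF1 hairpin Tet-pLKO-shHSF1, clone 7480 (shHSF1). Both hairpin groups were kept in puromycin for 5 days and then received doxycycline at 500 ng/mL for 48 h, so the drug exposures are shared by shNTC and shHSF1, whereas the labels name neither drug for the untransduced cells. The untransduced cells were grown for 48 h before RNA was taken. Every group grew in RPMI 1640 with fetal bovine serum and added HEPES, pyruvate and glucose. The hairpin cells carry a single HSF1 hairpin sequence, and the labels do not say whether the 2 libraries of a group came from separate cultures, so the p-values measure the spread between these libraries, which may be technical.

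The respiratory chain passes electrons from NADH and succinate to oxygen in the inner mitochondrial membrane, and the proton gradient that results drives the ATP synthase. Complexes I, III, IV and V are built from subunits of both genomes, whereas complex II is wholly nuclear. The mitochondrial genome is transcribed as long polycistronic RNAs from each strand, which are cut at the tRNAs that punctuate them, and all of its protein genes but MT-ND6 lie on the RNA read from the heavy strand. The nuclear genes have promoters of their own, many with sites for NRF1, GABPA or YY1. HSF1 is the transcription factor of the heat shock response.

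Some neighbouring mitochondrial reading frames share bases. The 2 junctions below are shown because reads in the capitals overlap both genes. The capitals mark the bases that both genes hold, with 20 bases on each side, 5′ to 3′ on the coding strand, from GENCODE v29 transcripts.
MT-ATP8 and MT-ATP6: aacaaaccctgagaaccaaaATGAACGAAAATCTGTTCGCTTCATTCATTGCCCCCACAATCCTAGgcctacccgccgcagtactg
MT-ND4L and MT-ND4: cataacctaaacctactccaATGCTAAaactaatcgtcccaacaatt
The first pair shares 46 bases at positions 8527 to 8572 of the mitochondrial chromosome, which is 22.2% of MT-ATP8. The second pair shares 7 bases at positions 10760 to 10766. MT-ATP8 is therefore the mitochondrial member whose count depends most on whether such reads were counted. The counting command names no option to count reads that overlap more than 1 gene. Among the nuclear members, 14 share exon bases with another gene on the same strand, the most in NDUFB8 (48.5% of its length), NDUFA13 (35.9%), NDUFB5 (35.2%) and COX8A (34.5%). Named pseudogenes exist for 29 nuclear members, among them COX6C with 17 and NDUFA5 with 12, so reads of these genes that map to several copies are uncertain.

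The libraries held 33550140 to 56715336 gene-assigned counts, and a count of 0 would allow up to 0.0529 to 0.0894 CPM (CPM, counts scaled to TMM-adjusted library sizes, is the scale used for all levels below), taking 3 counts as the limit and counting error only. The second PC9-BrM3 library stands apart: its TMM factor was 0.838 against 0.996 to 1.06 in the other 7. It differed from the first PC9-BrM3 library by a chi-square per degree of freedom of 335, against 12 to 27.7 within the other groups. That measure used raw counts with the mitochondrial genes included, so it is not separate from their excess described below. Results of the subline comparison are therefore given with and without the second PC9-BrM3 library. By the file headers, lane 7 held the untransduced and lane 1 the hairpin libraries, so the 2 comparisons were each fitted within a lane. HSF1 itself measured 178 and 184 CPM in shNTC and 15.6 and 13.5 CPM in shHSF1, which is -3.61 ± 0.08 (SE) as a log2 fold change with an adjusted p of 2.67e-08 in edgeR, and 46.9 to 54.6 CPM in the 4 untransduced libraries. Epithelial markers summed to between 2778 and 5801 CPM, led by KRT8. Markers of other cell types summed to at most 0.826 CPM for immune cells, 0.0191 CPM for fibroblasts and 0.392 CPM for neural and glial cells. The endothelial list lay between 19.5 and 55.9 CPM, almost all from CDH5. In bulk RNA, fewer cells of a type and less RNA per cell cannot be told apart, nor can fewer mitochondrial genomes and less RNA from each.

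The share of all gene counts taken by the 13 mitochondrially encoded members varied between libraries of a group as much as between groups. It was 2.01% and 1.2% in shHSF1 against 1.63% and 3.34% in shNTC. The PC9-BrM3 libraries had 4.14% and 14.2%, against 4.8% and 2.96% for PC9 parental. Exact binomial 95% intervals reached at most 0.011 percentage points to either side, so counting error does not limit these values. The second PC9-BrM3 library held 2.96 times the share of the next highest library. Neither hairpin group lay wholly above or below the other, since shHSF1 replicate 1 fell between the shNTC libraries. The log2 ratio of the mean shares was -0.59 for shHSF1 against shNTC and 1.03 for PC9-BrM3 against PC9 parental. A two-sided exact permutation test gave p = 0.667 for each, where the 6 splits of 2 against 2 libraries allow no p below 0.33. Without the second PC9-BrM3 library the subline ratio was 0.14.

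The nuclear members took a far smaller and steadier share. They held 0.514% and 0.533% of counts in shHSF1 against 0.45% and 0.452% in shNTC. The PC9-BrM3 libraries had 0.413% and 0.238%, against 0.437% and 0.445% for PC9 parental. Both shHSF1 libraries lay above both shNTC libraries, and both PC9-BrM3 libraries lay below both parental libraries, the second by far. For every count in a nuclear member there were 2.25 to 11 counts in a mitochondrial member in 7 libraries and 59.6 in the second PC9-BrM3 library. The plot of shares by library sets the genomes side by side.

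**Figure D1:**
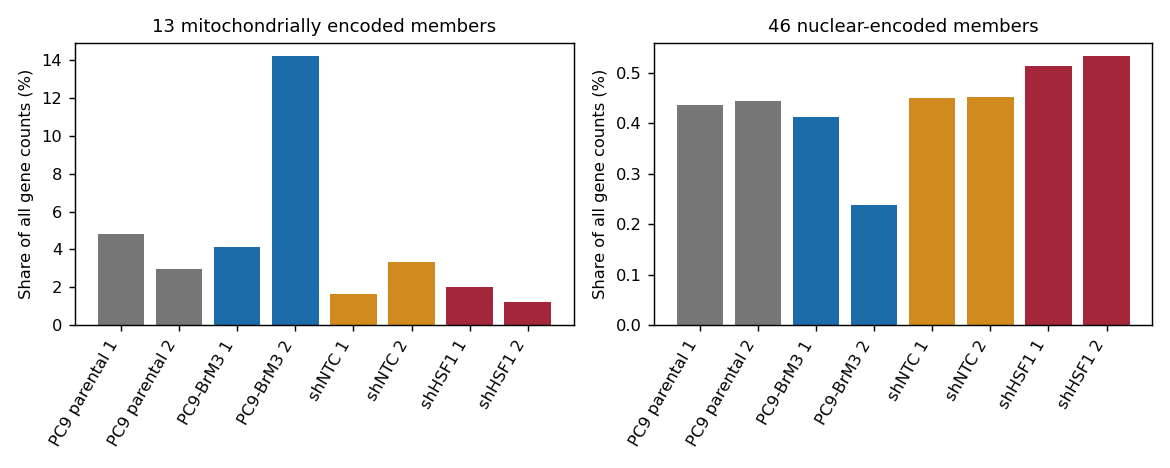
Share of all gene counts (%) in the 13 mitochondrially encoded members (left) and the 46 nuclear members (right), 1 bar per library, with different vertical scales. The second PC9-BrM3 library has the highest mitochondrial share (14.2%) and the lowest nuclear share (0.238%), and the shHSF1 libraries have the highest nuclear shares (0.514% and 0.533%).

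The 13 mitochondrial members moved together between replicates. Going from replicate 1 to replicate 2 of a group, the median log2 difference over the 13 genes was -0.70 for PC9 parental, 1.93 for PC9-BrM3, 1.00 for shNTC and -0.74 for shHSF1. The 46 nuclear members differed between the same libraries by medians of 0.03, -0.41, 0.01 and 0.06. In the second PC9-BrM3 library 38 of the 46 nuclear members lay below the first, down to -1.86, while all 13 mitochondrial members lay above it. The mitochondrial rRNA genes, which are transcribed from the heavy strand ahead of the protein genes, had the same library order within each group when summed: they took 1.42% and 1.24% of counts for PC9 parental against 1.26% and 3.08% for PC9-BrM3, and 0.222% and 0.464% for shNTC against 0.249% and 0.201% for shHSF1. MT-RNR1 alone went the other way in shHSF1, at 278 and 319 CPM.

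Among the mitochondrial members, MT-ND4, a proton-pumping subunit of complex I (MT:10760-12137), had the highest level per length, with a mean of 10698 CPM per kilobase over the 8 libraries. It had 8592 in PC9 parental, 26095 in PC9-BrM3, 4960 in shNTC and 3146 in shHSF1, the highest in each group. Means over the 8 libraries span both lanes and include the second PC9-BrM3 library, where MT-ND4 measured 60607 CPM. MT-ND6 (MT:14149-14673), the complex I subunit read from the light strand, had the lowest at 314 CPM per kilobase. The remaining 11 lay between 1890 (MT-ND5) and 5097 CPM per kilobase (MT-CO2, which carries the copper site that accepts electrons from cytochrome c). Between these, MT-ND1 (3154), MT-ND2 (3076) and MT-CYB (3068), the cytochrome b of complex III, were closer to each other than their replicates were. MT-ND4 alone took 27% to 35.8% of the counts of the 13 genes in each library.

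In the 12 genes of the heavy-strand RNA no difference between shHSF1 and shNTC passed the test. MT-ND4 measured 4314 and 9355 CPM in shNTC and 5455 and 3214 CPM in shHSF1. MT-CO1, the catalytic subunit of complex IV, measured 1866 and 4243 CPM in shNTC and 2102 and 1263 CPM in shHSF1. MT-ATP6, the proton channel subunit of the ATP synthase, measured 1303 and 2727 CPM in shNTC and 1354 and 822 CPM in shHSF1. In each of these the first shHSF1 library lay between the shNTC libraries, so the groups overlapped. Their log2 fold changes (shHSF1 minus shNTC) ran from -0.34 in MT-ND1 to -0.86 in MT-ATP6, with standard errors of 0.44 or more. Without shNTC replicate 2, MT-ND1, MT-ND2, MT-ND4 and MT-ND4L turned to positive values of 0.37, 0.05, 0.02 and 0.10, so the common negative sign rests on that library.

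MT-ND6 was the mitochondrial member that passed. It measured 111 and 178 CPM in shNTC and 62.6 CPM in both shHSF1 libraries, and these groups did not overlap. The log2 fold change was -1.18 ± 0.27 (SE; 2.26-fold lower; edgeR adjusted p = 0.0395). It was called in 8 of 13 alternative analyses, with adjusted p from 1.85e-07 to 0.35, and was lost when either shHSF1 library was left out (0.315 and 0.35). In this comparison 23.5% of all 16840 genes tested were called lower and 22.2% higher, against 1 and 0 of the 13 mitochondrial members. At an unadjusted p under 0.05 edgeR gave the same single gene, where 8830 of all 16840 genes had such a p. DESeq2 called 1 lower and 0 higher. As a share of the counts of the 13 genes, MT-ND6 took 0.694% and 0.539% in shNTC and 0.33% and 0.555% in shHSF1, which overlapped. The ratio of heavy-strand to MT-ND6 counts was 143 and 185 in shNTC and 302 and 179 in shHSF1.

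PC9-BrM3 against PC9 parental gave positive values for all 13 mitochondrial members, and none passed. MT-ND4 measured 14764 and 8917 CPM in PC9 parental and 11312 and 60607 CPM in PC9-BrM3. MT-ND5, the gene with the largest log2 fold change, measured 2929 and 1926 CPM in PC9 parental and 2593 and 15444 CPM in PC9-BrM3 (1.90 ± 0.78, edgeR adjusted p = 0.205). MT-CYB measured 3327 and 2049 CPM in PC9 parental and 3402 and 12936 CPM in PC9-BrM3 and was the 1 mitochondrial member of 13 whose groups did not overlap, where 59% of all genes did not. In each, the second PC9-BrM3 library lay far above the other 3. The median over the 13 was 1.30, with 1 gene at an unadjusted p under 0.05 in edgeR and 0 called by DESeq2. An unadjusted p under 0.05 was seen for 4368 of all 17372 genes. Across all 17372 genes tested edgeR called 3.87% higher and 3.27% lower (7.14% in all). Without the second PC9-BrM3 library the median was 0.09 and 0 were called, and without the first it was 1.93 and 3 were called higher (MT-ND2, MT-ND3 and MT-ND5).

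**Figure D2:**
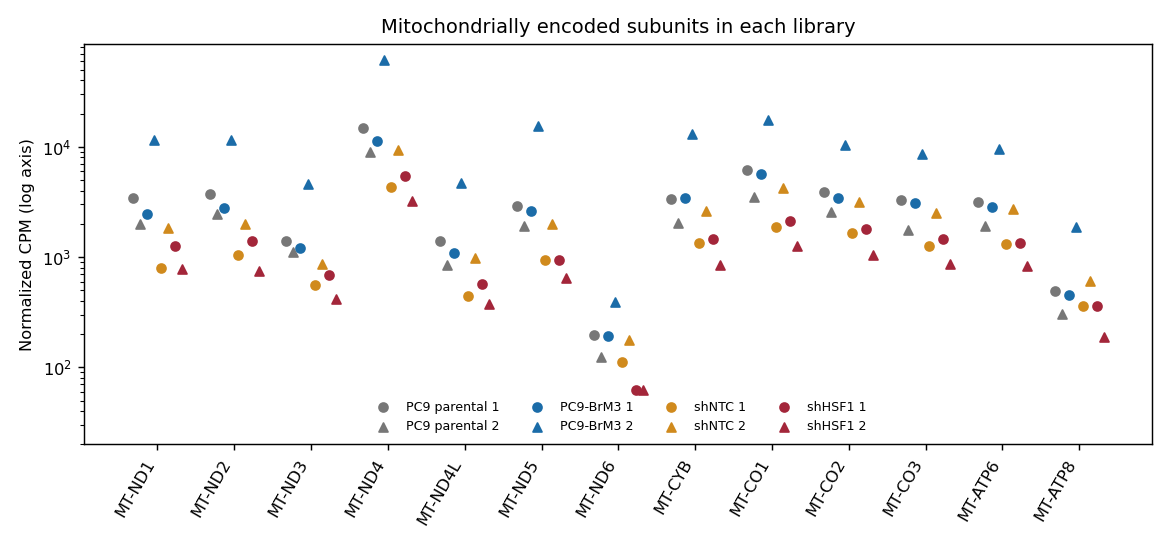
Level of each mitochondrially encoded member (normalized CPM, log axis) in each of the 8 libraries, circles for replicate 1 and triangles for replicate 2. The second PC9-BrM3 library is the highest for all 13 genes, and the hairpin groups overlap for all but MT-ND6, where both shHSF1 libraries lie at 62.6 CPM.

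The make-up of the mitochondrial RNA was taken as each gene's share of the counts of the 13. Between shNTC and shHSF1 the groups did not overlap for 8 genes, 4 with a higher share in shHSF1 (MT-ND1, MT-ND2, MT-ND3 and MT-ND4) and 4 with a lower one (MT-ND5, MT-CYB, MT-CO1 and MT-ATP6). The largest of these was MT-ND1, at 4.99% and 5.51% in shNTC and 6.64% and 6.86% in shHSF1. MT-CO1 took 11.7% and 12.9% in shNTC and 11.1% and 11.2% in shHSF1. Between PC9 parental and PC9-BrM3, 2 genes had a higher and 3 a lower share without overlap, and 8 overlapped. By CPM, 73.2% of all genes tested did not overlap between shNTC and shHSF1, and 59% did not between the lines. Shares of a whole are tied to each other, and no test was run on them. In the second PC9-BrM3 library MT-ND4 took 35.8% and MT-ND5 took 9.11%, both the highest of the 8 libraries, while MT-CO1 (10.2%), MT-CO2 (6.13%) and MT-CO3 (5.08%) were at their lowest there. MT-ND6 took 0.231% there, against 0.472% in the first PC9-BrM3 library. The ratio of heavy-strand to MT-ND6 counts was 431 there, against 143 to 302 in the other 7. Named nuclear pseudogenes of mitochondrial genes took 0.189% of counts in that library and 0.0213% to 0.0942% in the others.

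Among nuclear members the knockdown comparison called 17 of 46 higher and 1 lower in shHSF1, and 28 did not pass. That is 37% higher, where 22.2% of all genes were called higher, and 2.17% lower, where 23.5% of all genes were. The median log2 fold change was 0.11 over the 46 and 0.01 over all genes. The 17 rises were small, from 0.18 to 0.50 on the log2 scale (1.13- to 1.41-fold). DESeq2 called 14 higher and 1 lower. When all 8 libraries shared 1 estimate of the spread, which also lowered the share of all genes called higher to 9.04%, 1 of the 17 was called (NDUFS8). Without shNTC replicate 2 the count was 10 (21.7%, where 16.3% of all genes were called higher) and without shHSF1 replicate 2 it was 11 (23.9%, where 18% were). In all, 8 of the 17 were called in every one of the 12 alternatives other than the fit of all 8 libraries. CPM did not overlap between the groups for 32 members (69.6%), against 73.2% of all genes tested.

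Complex I, which oxidises NADH and is the largest of the complexes, had 7 of 22 nuclear members higher and 1 lower, with a median of 0.08. Of all genes tested, 22.2% were called higher and 23.5% lower. NDUFS8 (11:67798084-67804111), a core subunit that holds iron-sulfur clusters near the quinone site, measured 83.2 and 87.6 CPM in shNTC and 109 and 111 CPM in shHSF1. It rose by 0.39 ± 0.06 on the log2 scale (edgeR adjusted p = 0.000647) and was called in all 13 alternatives. NDUFB9, an accessory subunit of the membrane arm, measured 147 and 157 CPM in shNTC and 179 and 192 CPM in shHSF1 (0.31 ± 0.06, adjusted p = 0.00274). The groups did not overlap for either gene. The other 5 that rose were NDUFS3 and NDUFS7, core subunits of the matrix arm, and the accessory subunits NDUFA2, NDUFA6 and NDUFA10, by 0.22 to 0.32. NDUFS3, NDUFA6 and NDUFA10 were each called in 12 of 13 alternatives, but NDUFA2 in only 6 and NDUFS7 in only 4. With GC and length offsets NDUFA2 had 0.15 and NDUFS7 had 0.08, and neither passed. NDUFV1, the core subunit that binds NADH, measured 183 and 193 CPM in shNTC and 173 and 168 CPM in shHSF1 and did not pass (-0.12 ± 0.06, adjusted p = 0.12).

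NDUFA5 went the other way and changed far more than any other nuclear member. This accessory subunit of the matrix arm (7:123177051-123198309) measured 50.1 and 46.8 CPM in shNTC and 14.8 and 16.3 CPM in shHSF1. Both shHSF1 libraries lay at under 17 CPM. The untransduced libraries, on the other lane, lay at 63.1 to 68 CPM, and no test was made across the lanes. The log2 fold change was -1.62 ± 0.09 (3.08-fold lower; edgeR adjusted p = 7.96e-07), and it was called in all 13 alternatives, with values from -1.69 to -1.40. Its transcripts have a GC content of 36.7%, the lowest of the 46 members.

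Complex II, which feeds electrons from succinate into the quinone pool, had 1 of 4 members higher, where 22.2% of all genes were. SDHB (1:17345217-17380665), its iron-sulfur subunit, measured 63.5 and 67.4 CPM in shNTC and 76 and 82.1 CPM in shHSF1, without overlap (0.30 ± 0.07, edgeR adjusted p = 0.00606). SDHA, the flavoprotein (0.12 ± 0.06, adjusted p = 0.124), and the membrane anchors SDHC (-0.12 ± 0.09, adjusted p = 0.303) and SDHD (0.04 ± 0.07, adjusted p = 0.693) did not pass.

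Complex III, which reduces cytochrome c, had 2 of 6 nuclear members higher, where 22.2% of all genes were. UQCRC1 (3:48636435-48648409), a core protein of its matrix side, measured 93.1 and 93.6 CPM in shNTC and 125 and 131 CPM in shHSF1. The groups stood well apart, with a log2 fold change of 0.47 ± 0.06 (edgeR adjusted p = 0.000163). CYC1, the cytochrome c1 that hands electrons on, measured 144 and 143 CPM in shNTC and 163 and 165 CPM in shHSF1 (0.22 ± 0.06, adjusted p = 0.0103). With GC and length offsets CYC1 had 0.05 and did not pass (adjusted p = 0.44), nor did it without shNTC replicate 2 (0.051). UQCRC2, the partner core protein of UQCRC1, measured 166 and 179 CPM in shNTC and 179 CPM in both shHSF1 libraries and did not pass (0.07 ± 0.06, adjusted p = 0.335).

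Complex IV, the cytochrome c oxidase, had 4 of 8 nuclear members higher, where 22.2% of all genes were, and all 8 had positive values. Fewer of all genes were called in every knockdown fit with a library left out. The 4 calls fell to 1 without shNTC replicate 2, without shHSF1 replicate 1 or without shHSF1 replicate 2. COX7C, a small membrane subunit, measured 100 and 108 CPM in shNTC and 115 and 128 CPM in shHSF1 (0.25 ± 0.07, edgeR adjusted p = 0.0162). COX4I1, a regulatory subunit (16:85832239-85840650), measured 164 and 162 CPM in shNTC and 183 and 184 CPM in shHSF1 (0.19 ± 0.06, adjusted p = 0.0168). In those 3 fits COX4I1 did not pass (adjusted p = 0.0803, 0.0685 and 0.0584), and COX7C was lost without shNTC replicate 1 (0.101) or shHSF1 replicate 2 (0.118). Neither pair of groups overlapped. COX5B and COX6A1 rose by 0.18 and 0.22, each called in 5 of 13 alternatives. COX5A measured 30.9 and 23.1 CPM in shNTC and 31.8 and 36.5 CPM in shHSF1 and did not pass (0.36 ± 0.14, adjusted p = 0.0605).

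The ATP synthase had 3 of 6 nuclear members higher, where 22.2% of all genes were. ATP5F1B (12:57031959-57039798), the catalytic beta subunit, measured 567 and 586 CPM in shNTC and 766 and 796 CPM in shHSF1. This was the largest difference in CPM of any nuclear member, with a log2 fold change of 0.46 ± 0.06 (edgeR adjusted p = 0.000124). ATP5F1A, the alpha subunit that alternates with it in the head of the enzyme, measured 532 and 558 CPM in shNTC and 581 and 584 CPM in shHSF1 and did not pass (0.12 ± 0.06, adjusted p = 0.105). ATP5F1C, the gamma subunit of the rotor, rose by 0.20 and was called in 7 of 13 alternatives. Its call was lost with any single library left out. ATP5F1D, the delta subunit of the central stalk, had the largest fold change of the risers, from 31.4 and 25 CPM in shNTC to 38.7 and 39.9 CPM in shHSF1 (0.50 ± 0.11, adjusted p = 0.00397). Its transcripts have the highest GC content of the members (67.5%), and with GC and length offsets its value was 0.22 and the call was lost.

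GC content moved with the knockdown fold changes across the members. Pearson's r over the 46 nuclear members was 0.46, a description across genes that share libraries and are not independent. The 10 members of highest GC content had a median log2 fold change of 0.23 and the 10 of lowest GC content 0.06. With GC and length offsets 12 of the 46 members were called higher, where 22.1% of all genes were, and 11 of the 17 risers were among them. In that fit 4 members were called lower (NDUFA5, NDUFB3, NDUFV1 and UQCRFS1), where 23.4% of all genes were, and the median was 0.08.

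**Figure D3:**
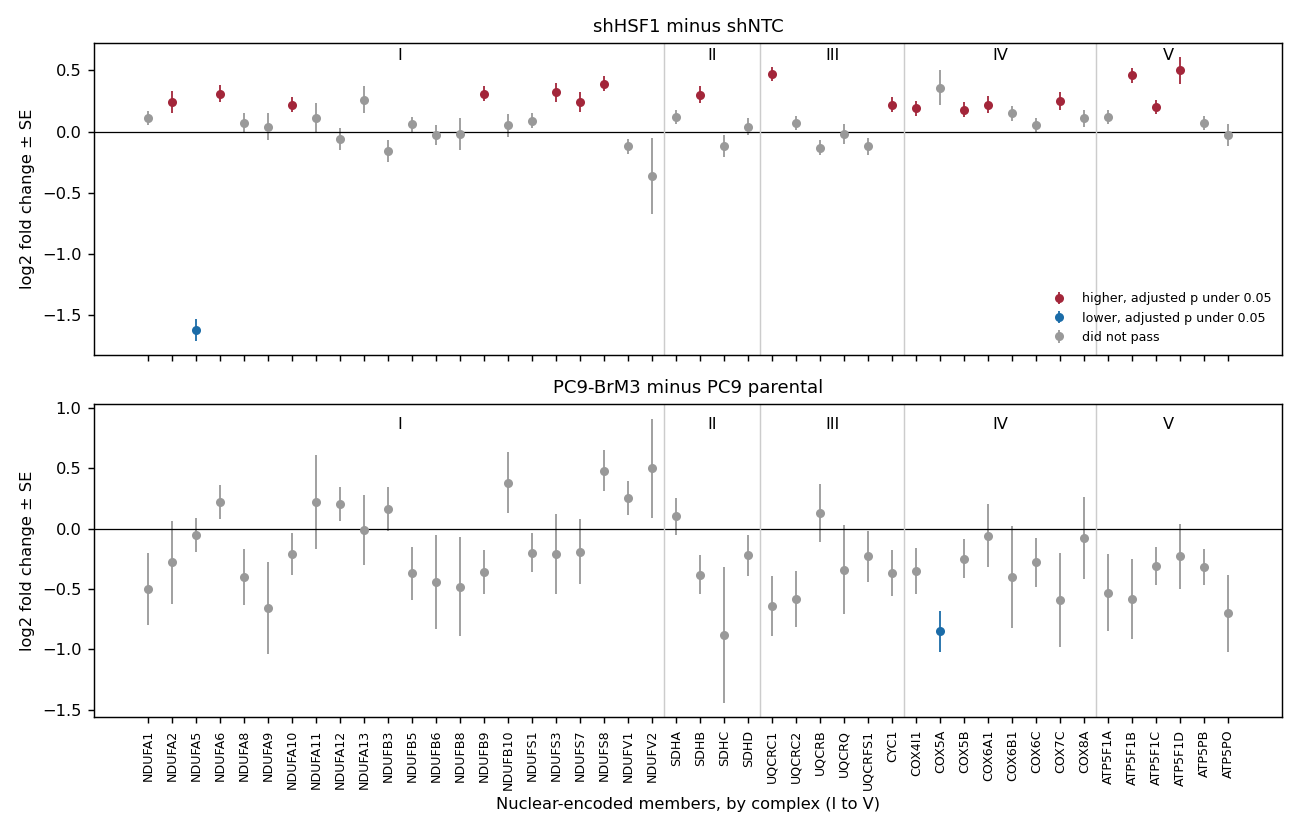
Log2 fold change ± SE of the 46 nuclear members by complex, for shHSF1 minus shNTC (top) and PC9-BrM3 minus PC9 parental (bottom), 2 libraries per group, coloured where the edgeR adjusted p is under 0.05. In the top panel 17 members lie higher by 0.18 to 0.50 and NDUFA5 lies at -1.62, and in the bottom panel standard errors are wider and COX5A is the 1 member called.

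Between PC9-BrM3 and PC9 parental, 0 of the 46 nuclear members were called higher and 1 lower, where edgeR called 3.87% and 3.27% of all genes. The same counts came from DESeq2. An unadjusted p under 0.05 in edgeR was seen for 4 members and for 4368 of all 17372 genes. The median log2 fold change was -0.28 and 36 of the 46 values were negative, but the replicates of PC9-BrM3 gave different pictures. Against the parental mean, the first PC9-BrM3 library had a median of -0.10, with 26 members below both parental libraries and 12 above both. The second had a median of -0.55, with 36 below both and 9 above both. CPM did not overlap between the groups for 29 members (63%), against 59% of all genes tested.

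COX5A (15:75212132-75230509), a subunit of complex IV on the matrix side, was the 1 nuclear member called, and it lay below the parental mean in both PC9-BrM3 libraries, by log2 differences of -0.72 and -0.97. It measured 36.1 and 37.1 CPM in PC9 parental and 22 and 18.4 CPM in PC9-BrM3, and these groups did not overlap. The log2 fold change was -0.85 ± 0.17 (1.8-fold lower; edgeR adjusted p = 0.0411). It was -0.74 ± 0.11 without the second PC9-BrM3 library (adjusted p = 6.24e-05) and -0.99 ± 0.12 without the first (adjusted p = 8.81e-07). With PC9 parental replicate 1 or 2 left out it did not pass (adjusted p = 0.325 and 0.368).

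SDHC, a membrane anchor of complex II (1:161284047-161332984), shows how far the second PC9-BrM3 library departed. It measured 43.7 and 44.4 CPM in PC9 parental and 37.5 and 9.95 CPM in PC9-BrM3. Its fitted value, -0.88 ± 0.56, was the lowest of the 46 and did not pass (edgeR adjusted p = 0.377). ATP5F1B measured 585 and 569 CPM in PC9 parental and 510 and 255 CPM in PC9-BrM3 (-0.58 ± 0.33, adjusted p = 0.317), again with the first PC9-BrM3 library near the parental values. A few members stood higher in that second library instead, among them UQCRB, a small subunit of complex III, at 136 CPM in both parental libraries and 114 and 182 CPM in PC9-BrM3.

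With the second PC9-BrM3 library left out, 2 nuclear members were called higher and 4 lower, where 14.8% and 15.9% of all genes were. NDUFS8 was higher, at 12.4 and 11.7 CPM in PC9 parental and 16.9 CPM in the first PC9-BrM3 library (0.48 ± 0.14, edgeR adjusted p = 0.0126), as was NDUFB3 (0.31 ± 0.11, adjusted p = 0.0474). UQCRC1 (-0.34 ± 0.10, adjusted p = 0.0134), UQCRC2 (-0.31 ± 0.09, adjusted p = 0.0138), ATP5PO (-0.30 ± 0.11, adjusted p = 0.0452) and COX5A were lower. In this fit the lone library is assumed to vary like the parental pair. With the first PC9-BrM3 library left out instead, 4 were called higher and 31 lower, against 26.1% and 25.1% of all genes, with a median of -0.54. NDUFS8 kept nearly the same value there (0.47 ± 0.14), and UQCRC1 (-1.05 ± 0.11) and UQCRC2 (-0.94 ± 0.10) lay much lower. With both PC9-BrM3 libraries NDUFS8 had 0.48 ± 0.17 and did not pass (edgeR adjusted p = 0.156). Over the 13 alternatives its value ran from 0.27 to 0.51.

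**Figure D4:**
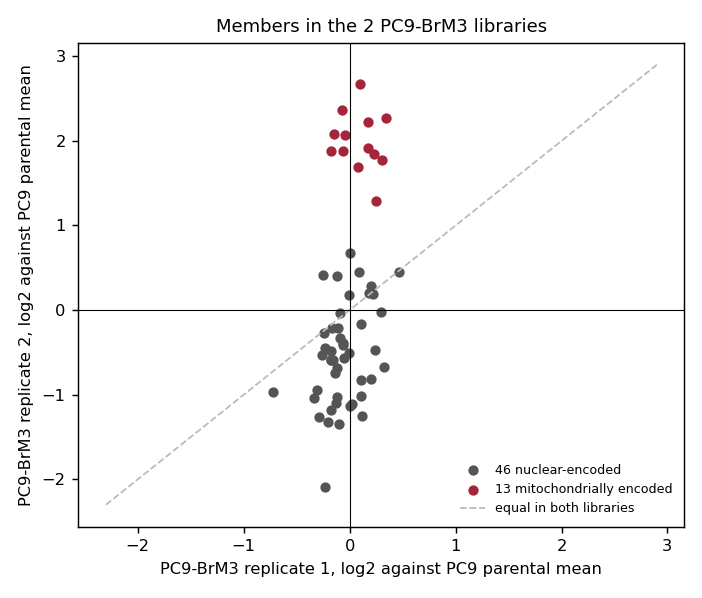
Each member's log2 level in the first (horizontal) and second (vertical) PC9-BrM3 library against the PC9 parental mean, with a dashed line where both would be equal. The 13 mitochondrially encoded members lie near 0 in the first library and well above 0 in the second, and the nuclear members spread to -2.09 in the second library while staying between -0.72 and 0.47 in the first.

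The comparisons share no library, and their values for the members differ. NDUFA5 had -1.62 with the HSF1 hairpin and -0.05 ± 0.14 between the lines (edgeR adjusted p = 0.836). UQCRC1 had 0.47 with the hairpin and -0.64 ± 0.25 between the lines (adjusted p = 0.192). No nuclear member passed in both comparisons, and the difference between comparisons was not tested.

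Per length, nuclear members stood below the mitochondrial ones other than MT-ND6. In shHSF1, ATP5F1B (344 CPM per kilobase), COX8A (174) and NDUFA1 (126) lay above MT-ND6 (119). The order of the nuclear members was read within groups, since the lanes differ. ATP5F1B was the highest of complex V in all 4 groups, at 254 CPM per kilobase in PC9 parental, 169 in PC9-BrM3 and 254 in shNTC, and NDUFA1 the highest of complex I, at 118 to 171. COX6B1 led complex IV in the untransduced groups (115 and 86.6), where COX8A had 34.7 and 32.6. COX8A led it in the hairpin groups (165 and 174), where COX6B1 had 99.2 and 109. ATP5F1D was the lowest of complex V in the untransduced groups (0.931 and 0.79), and ATP5PO, a stalk subunit, in the hairpin groups (9.86 and 9.54). NDUFV2, a core subunit of complex I, had 0.179 to 0.357 CPM per kilobase in the 4 groups, from only 21 to 41 counts per library. It shares 28.4% of its bases with another gene on the same strand and has 1 named pseudogene. Whether read assignment lowered its count was not tested. Lengths are those of all annotated exons together, which for genes such as NDUFA5 (9851 bases) run well past a single messenger and lower the value per kilobase.

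Levels of members rich in GC differed widely between the lanes, and no test was made across them. NDUFS7 measured 1.47 to 1.88 CPM in the 4 untransduced libraries and 25.6 to 30.1 CPM in the 4 hairpin libraries. ATP5F1D measured 1.74 to 2.25 CPM and 25 to 39.9 CPM, and NDUFA11, an accessory subunit of complex I, 0.867 to 1.53 CPM and 12.5 to 15.5 CPM. From the first PC9-BrM3 library to the shNTC mean, the 10 members of highest GC content (58.4% or more) had a median log2 difference of 2.03, and the 10 of lowest (44.4% or less) -0.37. Pearson's r between GC content and this difference over the 46 members was 0.77, again a description across genes. Lane, transduction, drugs and any difference in library preparation cannot be told apart here.

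**Figure D5:**
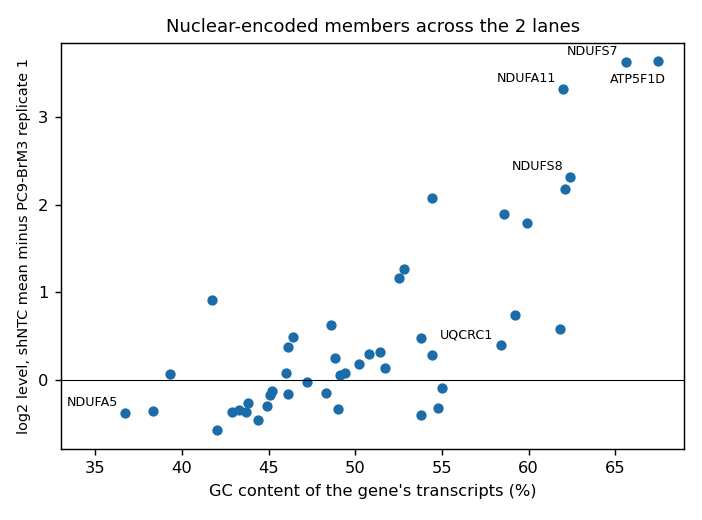
Log2 difference in level between the shNTC mean and the first PC9-BrM3 library (vertical) against the GC content of each nuclear member's transcripts in % (horizontal), 1 point per member. Members of high GC content such as NDUFS7, ATP5F1D and NDUFA11 lie above 3, and most members under 45% GC lie at or below 0.

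Of the other nuclear subunits of the chain, those outside the 46, 6 of 32 tested were higher (18.8%) and 3 lower (9.38%) in shHSF1, with a median of 0.10, where 22.2% and 23.5% of all genes were. Leaving out any single library of the knockdown lowered the shares of all genes called in both directions. Fewer calls in such fits, here and in the lists below, are to be read beside that. The 6 fell to 3 without shNTC replicate 2. ATP5MJ, a small subunit of the ATP synthase, rose from 66 and 66.3 CPM to 90.2 and 90.5 CPM (0.47 ± 0.06, edgeR adjusted p = 0.000186). NDUFB4, an accessory subunit of complex I, fell from 75 and 69.5 CPM to 43.8 and 44.6 CPM (-0.69 ± 0.07, adjusted p = 4.17e-05). UQCR10 of complex III and NDUFV3 of complex I fell by 0.34 and 0.33. In the subline comparison 0 of the 32 were called by edgeR, and 1 had an unadjusted p under 0.05, where 4368 of all 17372 genes did.

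Assembly factors, which build the complexes without staying in them, held the largest falls of these lists. Of 48 tested, 7 were higher (14.6%) and 10 lower (20.8%) in shHSF1, with a median of -0.01, both under the shares of all genes (22.2% and 23.5%). The 10 fell to 6 without shNTC replicate 1 or without shHSF1 replicate 1. COX20, a chaperone of MT-CO2, fell from 29.4 and 26.5 CPM in shNTC to 7.34 and 7.54 CPM in shHSF1 (-1.89 ± 0.11, edgeR adjusted p = 9.64e-07). LYRM7, which helps insert the iron-sulfur protein of complex III, fell from 28 and 27.5 CPM to 7.73 and 8.38 CPM (-1.76 ± 0.10, adjusted p = 1.01e-06). COX15, an enzyme of heme a synthesis, fell from 53.7 and 50.2 CPM to 17.9 and 17.3 CPM (-1.54 ± 0.08, adjusted p = 6.82e-07). In each the shHSF1 libraries agreed closely and lay far below shNTC. NDUFAF5, ECSIT and COX10 rose by 0.68, 0.35 and 0.45. LYRM7 was also the 1 assembly factor called in the subline comparison, at 45.2 and 46.3 CPM in PC9 parental and 27.5 and 26.1 CPM in PC9-BrM3 (-0.76 ± 0.14, adjusted p = 0.0372). That call was lost with either parental library left out, with the replicate block and with GC and length offsets.

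Of 35 genes that maintain and express the mitochondrial genome, 11 were lower and 4 higher in shHSF1, with a median of -0.11, where 23.5% and 22.2% of all genes were called. TWNK, the replicative helicase, fell by 0.77 (edgeR adjusted p = 9.54e-05), MGME1, an exonuclease of the mitochondrial genome, by 0.60 (adjusted p = 9.7e-05), and GRSF1, an RNA-binding protein of mitochondrial RNA granules, by 0.53 (adjusted p = 0.000168). TFAM, which packages the mitochondrial genome and starts its transcription, rose from 209 and 202 CPM to 236 and 249 CPM (0.26 ± 0.06, adjusted p = 0.00461). POLRMT, the mitochondrial RNA polymerase, and POLG, the DNA polymerase, each rose by 0.27. The 4 higher calls fell to 1 without shNTC replicate 2 or without shHSF1 replicate 2 and to 2 without shNTC replicate 1. In the subline comparison 0 of the 35 were called by edgeR, and DESeq2 called 1 lower. An unadjusted p under 0.05 in edgeR was seen for 6 of them and for 4368 of all 17372 genes.

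Mitochondrial ribosome proteins, which make the 13 mitochondrial subunits, were called in both directions in the knockdown, 12 higher (15.8%) and 18 lower (23.7%) of 76, with a median of -0.00, where 22.2% and 23.5% of all genes were. Without shNTC replicate 2 these were 7 and 11, the higher calls were 7 without shHSF1 replicate 2, and the lower calls 10 without shHSF1 replicate 1. MRPL49 rose by 0.38 (edgeR adjusted p = 0.000934) and MRPL57 fell by 0.74 (adjusted p = 0.000111). In the subline comparison 2 of 77 were lower: PTCD3, at 93.8 and 95.1 CPM in PC9 parental and 53.3 and 48.9 CPM in PC9-BrM3 (-0.88 ± 0.14, adjusted p = 0.026), and MRPS27, at 185 and 197 CPM and 122 and 115 CPM (-0.69 ± 0.14, adjusted p = 0.0456). MRPS27 was higher in the knockdown, at 0.37. Both subline calls were lost with either parental library left out, and 1 of them with the replicate block or with GC and length offsets.

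The remaining lists had calls in both directions in the knockdown, to be read against the 22.2% higher and 23.5% lower of all genes. Of 7 regulators of mitochondrial biogenesis 1 was higher (ESRRA, a nuclear receptor, 0.42) and 2 lower (PPRC1, a coactivator, -0.42, and GABPA, -0.37). Of 18 genes of pyruvate dehydrogenase and the citric acid cycle 4 were higher, led by DLAT (0.37), and 4 lower, led by PC (-0.46). The lower calls fell to 1 without shNTC replicate 1 and to 2 without shHSF1 replicate 1. Among 25 genes of import, cristae and channels 6 were higher and 6 lower, with TIMM50 of the import machinery at 0.32 and OPA1, which shapes cristae, at -0.41. The higher calls fell to 3 without shNTC replicate 1. Of 14 matrix chaperones and proteases 3 were higher and 6 lower. HSPE1, the mitochondrial co-chaperonin, fell from 56.6 and 64.8 CPM to 28.1 and 29.4 CPM (-1.05 ± 0.08, edgeR adjusted p = 8e-06), and HSPD1, its chaperonin partner and a known HSF1 target, fell from 1061 and 1042 CPM to 803 and 832 CPM (-0.34 ± 0.06, adjusted p = 0.000877). Among 22 genes of coenzyme Q, cytochrome c and electron donors 4 were higher and 7 lower. CYCS, cytochrome c itself, rose from 220 and 226 CPM to 283 and 288 CPM (0.38 ± 0.05, adjusted p = 0.000322), and ETFDH, which passes electrons from fatty acid oxidation to coenzyme Q, fell from 10.2 and 10.7 CPM to 3.54 and 3.89 CPM (-1.46 ± 0.13, adjusted p = 1.78e-05).

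In the subline comparison edgeR called 0 genes of these 5 lists. At an unadjusted p under 0.05 there were 0 of 7 regulators and 6 of 18 genes of pyruvate dehydrogenase and the citric acid cycle. There were also 4 of 25 genes of import, cristae and channels and 0 of 14 chaperones and proteases. Of the 22 genes of coenzyme Q, cytochrome c and electron donors there were 3. Of all 17372 genes tested, 4368 had such a p. Without the second PC9-BrM3 library, where 15.9% of all genes were called lower, 10 of the assembly factors, 10 of the genome expression genes and 19 of the ribosome proteins were. DESeq2 called 2 higher and 2 lower in the citric acid cycle list, 2 lower in the import list and 1 lower in the coenzyme Q list. HSPE1 departed in the second PC9-BrM3 library, as SDHC did, with 68.5 and 70 CPM for PC9 parental and 65.5 and 11.7 CPM for PC9-BrM3. The mitochondrial rRNA genes MT-RNR1 and MT-RNR2 did not pass in either comparison, with medians of -0.61 in the knockdown and 0.69 between the lines. Both were called lower in the knockdown without shNTC replicate 1 and higher between the lines without PC9-BrM3 replicate 1.

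Promoters of the nuclear members were searched because many of these genes moved the same way in the knockdown. RefSeq windows on GRCh38.p14, from 250 bases before to 50 after each start, were found for 38 of the 46 members, in 43 windows, and were set beside all 35116 windows, counting either strand. The palindromic core of the NRF1 motif stood in 6.98% of member windows and 1.24% of all windows. The GABPA letters CCGGAAGT stood in 16.3% and 4.14%, the YY1 letters AAGATGGCG in 14% and 1.75%, and the ESRRA letters TCAAGGTCA in 2.33% and 0.353%. Of the 6 members with the YY1 letters (NDUFA6, NDUFA9, NDUFB8, NDUFS7, SDHB and UQCRC1), 4 were called higher in the knockdown. So were 1 of 7 with the GABPA letters, 1 of 3 with the NRF1 core and 0 of 1 with the ESRRA letters. Of all 46 members 17 were called higher, but only the 38 with a window could hold a motif, so the bases differ. NDUFS7, which is among those 4, was called in only 4 of 13 alternatives. A link between motif and change was not tested. The HSF1 motif, alternating units of GAA and TTC with a pair of free bases between units, stood in 0 of the 43 member windows and in 0.49% of all windows, which says only that this pattern is not in these windows.

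The 150 bases before the start are shown for SDHD, the member with matches to 3 of the motifs and a flat knockdown value (0.04), for NDUFS8, which rose, and for NDUFA5, which fell. Capitals mark the NRF1 core (110 to 101 bases before the start) and the GABPA letters read on the other strand (78 to 71 bases before it), and the ESRRA match of SDHD lies outside the printed bases. NDUFS8 and NDUFA5 have none of the searched letters in their windows. Each sequence reads 5′ to 3′ along the gene, at chr11:112086723-112086872 (plus strand), chr11:68030531-68030680 (plus strand) and chr7:123557819-123557968 (minus strand) of GRCh38.p14.
SDHD: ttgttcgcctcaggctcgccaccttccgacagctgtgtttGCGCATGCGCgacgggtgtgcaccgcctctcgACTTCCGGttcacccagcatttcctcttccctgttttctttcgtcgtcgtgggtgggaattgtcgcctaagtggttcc
NDUFS8: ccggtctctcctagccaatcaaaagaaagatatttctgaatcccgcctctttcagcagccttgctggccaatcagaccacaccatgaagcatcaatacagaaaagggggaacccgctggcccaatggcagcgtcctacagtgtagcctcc
NDUFA5: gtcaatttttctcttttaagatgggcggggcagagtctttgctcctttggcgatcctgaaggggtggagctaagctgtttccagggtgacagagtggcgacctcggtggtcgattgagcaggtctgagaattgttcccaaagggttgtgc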

How the data were processed

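Gene counts of 8 RNA-seq libraries, 2 in each of 4 groups named by the sample titles, were analysed. The deposited files hold raw counts, made by the authors with featureCounts 1.6.1 over the exons of each Ensembl gene ID (GRCh37) in reverse-stranded mode, per the file headers. The headers' command holds no option for reads that map to several places. The submitters' processing notes also name Trim Galore, HISAT2 and DESeq2, without their roles. Any selection of the RNA before library preparation is not given in the sources used here.

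A comparison used only its own 4 libraries. Genes were kept by filterByExpr with a minimum count of 10 and a minimum total of 15, scaled by TMM and tested by the robust quasi-likelihood F test of edgeR 4.0.16 under R 4.3.3. P-values were adjusted by Benjamini-Hochberg over all genes tested, with a threshold of 0.05. The fits have 2 residual degrees of freedom. Levels are CPM on TMM factors computed over the 8 libraries, and log2 differences between single libraries used a pseudocount of 0.5 CPM. Symbols came from a table of gene names and GC content from GENCODE v29 by gene ID. Alternatives were DESeq2 1.42.0, other scaling factors, no filter, 1 fit of 8 libraries, library sizes without mitochondrial genes, a replicate block, GC and length offsets, and leaving out each library. The test was tried on simulated counts. The members and lists were chosen with earlier results of these data known. Members with values in full were the mitochondrial ones, up to 2 per complex, direction and comparison by smallest p, and the extremes in level and change. From other lists, up to 3 genes per comparison and direction by smallest p qualified.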

Additional observations from a re-analysis of the deposited data

How the results depend on the processing

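Of 728 values recomputed for the 28 members given in full, 664 kept their direction and their side of the threshold. In the knockdown, the mitochondrial members called lower (1) were 0 with upper-quartile factors, with no count filter and with the replicate block combined with GC and length offsets, and 0 to 1 with single libraries left out. Nuclear members called higher (17) were 1 with all 8 libraries in 1 fit and 10 to 13 with single libraries left out, and those called lower (1) were 4 with GC and length offsets, with and without the replicate block. The nuclear median (0.11) was 0.18 with upper-quartile factors, 0.08 with GC and length offsets, with and without the block, and 0.09 to 0.14 with single libraries left out. The mitochondrial median ran from -1.16 to -0.13. Upper-quartile factors moved the median of all genes from 0.01 to 0.07 and the split of all calls from 3739 higher and 3962 lower to 4592 and 3387.

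In the subline comparison, nuclear members called lower (1) were 3 with no count filter, 2 with the replicate block and GC and length offsets, and 0 to 31 with single libraries left out. Those called higher (0) were 1 with all 8 libraries in 1 fit and 0 to 4 with single libraries left out, and mitochondrial members called higher ran from 0 to 3. The mitochondrial median ran from 0.09 to 1.93 and the nuclear one from -0.54 to -0.10. All genes called went from 672 higher and 568 lower to 1660 and 1499 with no count filter, 1991 and 1822 with all 8 libraries and 1206 and 997 with DESeq2. In the knockdown all 8 libraries gave 1639 and 2234.

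In the knockdown 4 mitochondrial and 11 nuclear members, and in the subline comparison 5 and 13, turned sign under at least 1 alternative, 12 of the nuclear ones without PC9-BrM3 replicate 2. Of the members given in full, these were as follows. In the knockdown SDHD went from 0.04 to -0.03 with GC and length offsets, with and without the block. Leaving out single libraries gave ranges of -0.81 to 0.37 for MT-ND1, -0.98 to 0.05 for MT-ND2, -1.09 to 0.02 for MT-ND4, -1.04 to 0.10 for MT-ND4L and -0.00 to 0.07 for SDHD. In the subline comparison the ranges were -0.16 to 2.08 for MT-ND1, -0.18 to 1.88 for MT-ND2, -0.06 to 1.88 for MT-ND3, -0.07 to 2.36 for MT-ND4, -0.05 to 2.08 for MT-ND4L and -1.25 to 0.12 for COX6B1. The causes were not tested.

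The labels do not say that replicate numbers mark a batch. Differences between replicates 1 and 2 correlated between groups at r = 0.0184 (hairpins) and -0.00877 (lines). These values show no shared replicate effect over all genes, but cannot show that the libraries are unpaired. With the replicate block alone the counts of members called did not move (17 and 1 nuclear, 1 mitochondrial, and 1 subline), and all genes called were 3893 higher and 4122 lower with the HSF1 hairpin, and 717 and 611 between the lines. With 2 libraries per group, small changes are near the limit of what these fits can call.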
